A study of Mus musculus with 4 samples.

Results

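Potassium channel genes were compared between gonadotropes of control mice and of conditional Gata2 knockout (cKO) mice. Gonadotropes are the anterior pituitary cells that secrete luteinizing hormone and follicle-stimulating hormone, and the protein made from Gata2 binds DNA at GATA sites and regulates transcription. The members are the protein-coding genes whose symbol starts with Kcn and that had 10 or more counts in at least 2 of the 4 libraries. This rule took 67 of the 94 protein-coding Kcn genes in a table of 54532 rows, and it used no comparison between the groups. Each group had 2 libraries of poly(A) RNA from sorted gonadotropes of male mice, 10 to 12 weeks old and of mixed strain. The series' title calls the knockout gonadotrope-specific, while its design text speaks of whole pituitaries. The sources used here do not give the driver of the recombinase, the alleles of the controls, or whether the animals behind the libraries were different ones. The p-values therefore cover only library-to-library spread, part of which may be technical.

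Of the 27 Kcn genes that did not meet the rule, 13 had no count in any library, 12 had counts in 1 library and 2 had counts in 2. Control replicate 2, the deepest library, was the source in 10 of those 12 genes. No Kcne gene (5 in the table, coding for small accessory subunits) and no Kcns gene (3, coding for silent subunits) was a member. Closest to the threshold on the inside was Kcng1, with 0 and 19 counts in control and 0 and 46 in cKO libraries. On the outside, Kcnrg had 31 and 5 counts in the controls and none in the cKO libraries, and Kcnk15 had 1 and 14 in the controls and none in the cKO libraries.

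Potassium channels let potassium ions leave the cell and thereby set the resting potential, end action potentials and space the bursts of firing that drive calcium entry and hormone release. Gonadotropes fire spontaneously, and gonadotropin-releasing hormone makes their calcium oscillate and opens calcium-activated potassium channels. The voltage-gated families (Kcna, Kcnb, Kcnc, Kcnd, Kcnh and Kcnq) repolarize the cell, and tandem-pore channels (Kcnk) carry background current. Some inward rectifiers (Kcnj) couple to G proteins or to ATP, and the Kcnma, Kcnn and Kcnt families respond to calcium or sodium. Subunits of the Kcnf, Kcng, Kcns and Kcnv families do not conduct alone but modify Kcnb channels, and Kcnab, Kcnip and Kcnmb genes code for accessory subunits without a pore.

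Most members share a short coding stretch that the rule did not use. The selectivity filter, the narrowest part of the pore, is coded by 5 codons in a row: threonine or serine, then valine, isoleucine or leucine, then glycine, tyrosine or phenylalanine, and glycine. This signature was searched in the longest complete coding sequence of each member in GENCODE M21. It was found in 56 of the 67 members. All 10 accessory members lacked it, and 1 copy was present in all 28 voltage-gated, all 9 inward rectifier, all 7 members of the calcium-activated family (Kcnma1, the Kcnn and Kcnt genes and Kcnu1) and all 6 modifier members. Of the 7 tandem-pore members 5 held 2 copies, Kcnk6 held 1, and Kcnk1 held none in exactly this form. The 59 copies compared had 52 different stretches of 15 bases, and 8 once the last base of each codon was left out. These sequences are shown because they mark what the genes described here have in common and where the families differ. The 15 bases of the signature are in capitals with 15 bases on each side, on the coding strand.
Kcnk9, first pore: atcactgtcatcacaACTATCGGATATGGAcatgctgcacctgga
Kcnk9, second pore: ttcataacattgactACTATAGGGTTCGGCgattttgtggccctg
Kcnk3, first pore: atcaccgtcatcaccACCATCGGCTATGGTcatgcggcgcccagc
Kcnk3, second pore: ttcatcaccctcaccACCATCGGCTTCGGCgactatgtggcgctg
Kcnd2: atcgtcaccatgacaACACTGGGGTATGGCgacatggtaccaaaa
Kcna4: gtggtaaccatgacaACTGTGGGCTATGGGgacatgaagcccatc
Kcnc4: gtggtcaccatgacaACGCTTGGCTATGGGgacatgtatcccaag
Kcng4: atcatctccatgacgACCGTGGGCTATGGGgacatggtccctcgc
Kcnh1: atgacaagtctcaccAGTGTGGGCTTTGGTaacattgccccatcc
Kcnh2: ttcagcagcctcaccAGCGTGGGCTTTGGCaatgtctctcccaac
Kcnma1: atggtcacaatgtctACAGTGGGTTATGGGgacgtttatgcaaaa
Kcnn3: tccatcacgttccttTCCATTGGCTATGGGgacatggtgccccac
Kcnj6: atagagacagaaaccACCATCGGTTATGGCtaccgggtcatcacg

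The control libraries held 10646909 and 21135301 counts (replicates 1 and 2) and the cKO libraries 15541553 and 18362182. Gata2 had 537 and 526 CPM in control and 221 and 214 in cKO libraries (log2 fold change -1.29, SE 0.14, adjusted p = 0.0473 by edgeR). CPM stands for TMM-scaled counts in each 1000000. The libraries did not sort by group in the Pearson correlation (r) of log2 CPM. Control replicate 2 had r = 0.87 with cKO replicate 1 and 0.884 with cKO replicate 2, but 0.839 with control replicate 1. For cKO replicate 1 with cKO replicate 2 it was 0.834. Control replicate 1 had the lowest values, 0.77 with cKO replicate 1 and 0.786 with cKO replicate 2. Control replicate 1 also stood apart in its zero counts. Members with no count numbered 14 of 67 there, 1 in control replicate 2, 4 in cKO replicate 1 and 5 in cKO replicate 2. Of the 13 members with no count in control replicate 1 but some in control replicate 2, 10 had a fitted log2 fold change above 0, and their median count in control replicate 2 was 52. Markers of several cell types moved with the groups. The summed level of 7 gonadotrope markers was 15890 and 14248 CPM in control and 6923 and 8214 in cKO libraries, with all 7 fitted log2 fold changes below 0. Most of this sum came from the hormone subunit genes Cga, Lhb and Fshb. Nr5a1 overlapped between the groups, with 277 and 397 CPM in control and 275 and 372 in cKO libraries (log2 fold change -0.06). For 6 lactotrope markers the sum was 358 and 630 against 1350 and 1367 CPM, with all 5 tested members fitted above 0 and Agtr1b at 0 in all libraries. Most of it was Prl (312 and 583 against 1249 and 1271 CPM), and Angpt1 overlapped (0 and 19 against 0 and 27 counts). Somatotrope marker sums overlapped (1133 and 2388 against 2158 and 387 CPM). The summed level of 5 corticotrope markers was also lower in both cKO libraries, by a small margin (7316 and 10039 against 6177 and 7289 CPM), and that of melanotrope markers overlapped (266 and 199 against 196 and 249). Both cKO libraries were above both controls in the sums of 5 thyrotrope markers (81.1 and 79.2 against 157 and 114 CPM) and of 6 stem and folliculostellate markers (74.9 and 89.5 against 112 and 123). Most of the thyrotrope sum was Dio2 (54.9 and 52.6 against 116 and 82.7 CPM). The thyrotrope hormone gene Tshb went the other way, with 22.3 and 13.7 CPM in control and 7.33 and 7.08 in cKO libraries. In the stem and folliculostellate list 2 of the 5 tested genes were higher and the median log2 fold change was -0.11, opposite in sign to the sum. All 13 mitochondrially encoded genes were higher in cKO, with sums of 51846 and 60980 against 75778 and 90221 CPM. In bulk samples fewer cells of a type and less RNA per cell cannot be told apart, and the part of these cells and of the mitochondrial share in the results below was not tested.

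Both groups expressed a potassium channel repertoire of similar summed level. Per kilobase of exon, the 67 members together had 449 and 476 CPM in control and 450 and 458 in cKO libraries. The 6 members with the highest mean level held 53.1% of the summed level and the first 12 held 71.3%. By contrast 18 members were under 1 CPM per kilobase. Kcnk1, a weakly conducting tandem-pore channel, was among the highest, with 30.4 and 44.1 CPM per kilobase in control and 45.8 and 61.8 in cKO libraries. Kcnc4, a Shaw subunit that inactivates fast, had 53.8 and 45.5 in control and 40.2 and 35.7 in cKO libraries. These levels lay within the spread of the libraries, so their order is not resolved. The acid-sensitive background channel Kcnk3 had a mean of 38.5 CPM per kilobase over the 4 libraries, the ether-a-go-go-related channel Kcnh2 35.2 and the accessory protein gene Kcnip3, also called DREAM or calsenilin, 32.5. The A-type channel Kcnd2 had 26.2 and 26.0 CPM per kilobase in the control libraries, where its level lay near that of Kcnip3 (37.1 and 24.3), and 12.0 and 15.4 in cKO. The sodium-activated channel Kcnt1 had a mean of 14.8 over the 4 libraries.

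**Figure D1:**
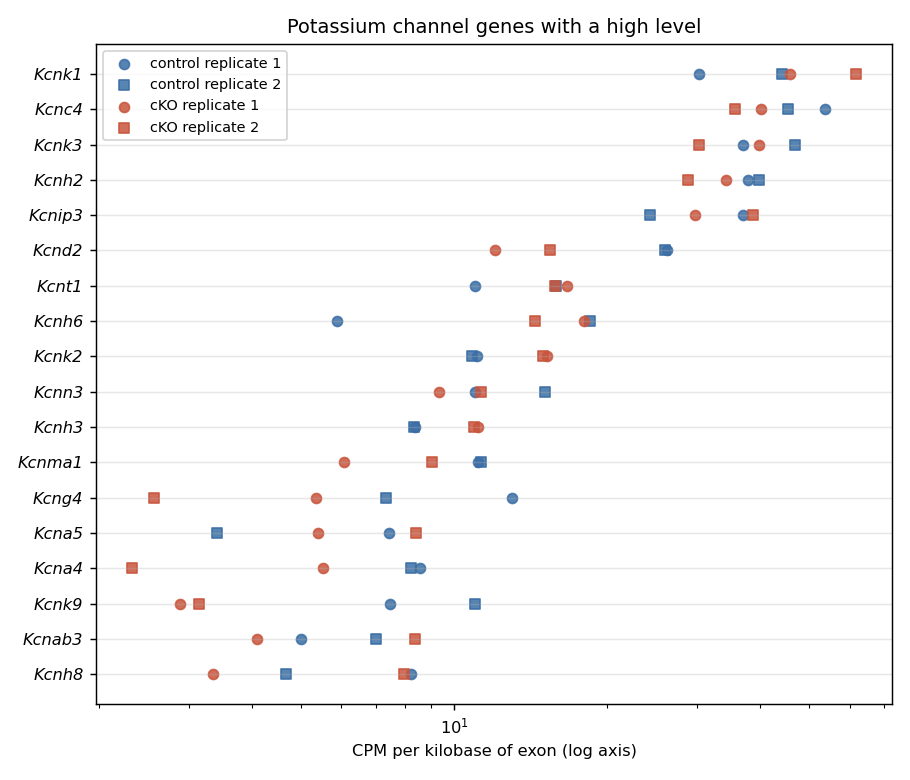
Level of 18 of the 20 potassium channel genes with the highest mean, in CPM per kilobase of exon on a log axis; each point is 1 library, blue for control and red for cKO. Kcnk1 and Kcnc4 overlap at the top. Kcnc4, Kcnh2, Kcnd2, Kcnma1, Kcng4, Kcna4 and Kcnk9 have both cKO libraries to the left of both controls. Kcnk1, Kcnk2 and Kcnh3 have both to the right.

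No potassium channel gene passed the test over all genes. In edgeR's quasi-likelihood test 0 of 67 members had an adjusted p under 0.05, against 0.0576% of the 17349 genes tested, and the smallest adjusted p was 0.206, for Kcnk9. At an unadjusted p under 0.05 there were 7 members, which is 10.4% of them against 7.04% of all genes tested. All 7 were lower in cKO, as were 3.88% of all genes tested at this p, and 0 were higher (3.15% of all genes). Of these 7, Kcng2 met the membership rule through the controls alone. DESeq2 called 4 members against 5.77% of the genes it gave an adjusted p, limma-voom 3 against 1.48%, and edgeR's newer quasi-likelihood method 1 against 0.271%. Among the genes called, Kcnk9 was in all 3 sets, Kcnd2 in those of DESeq2 and limma-voom, and Kcng2 in that of DESeq2. Without a filter edgeR called 4 members against 1.04% of all genes. With 1 library left out it called 1 member when control replicate 1 was omitted (0.32% of all genes), 4 when control replicate 2 was (3.5%), 2 when cKO replicate 1 was (0.361%) and 1 when cKO replicate 2 was (0.503%). In those fits the lone library of a group is assumed to vary like the other group. At an unadjusted p DESeq2 had 17 members (15.6% of all genes) and the fit without control replicate 2 had 21 (18.9% of all genes).

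The members were split between both directions much as all genes were. Of the members 32 were lower and 35 higher in cKO, a lower share of 47.8% against 47.6% over all genes tested. Their median log2 fold change was 0.06 and that of all genes 0.03, and the former was the same when Kcng2 and Kcnmb3, each uncounted in 1 group, were given their bounds. Both cKO libraries lay below both controls in 16 members (23.9%, against 19.3% of all genes tested) and above them in 17 (25.4%, against 19.7%). The groups overlapped in the other 34. On the log2 scale (with 0.5 CPM added), the median difference was 0.61 between the 2 control libraries, 0.48 between the 2 cKO libraries and 0.60 between the group means. A mean of 2 libraries varies less than a single library, so these values are a description and not a test.

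**Figure D2:**
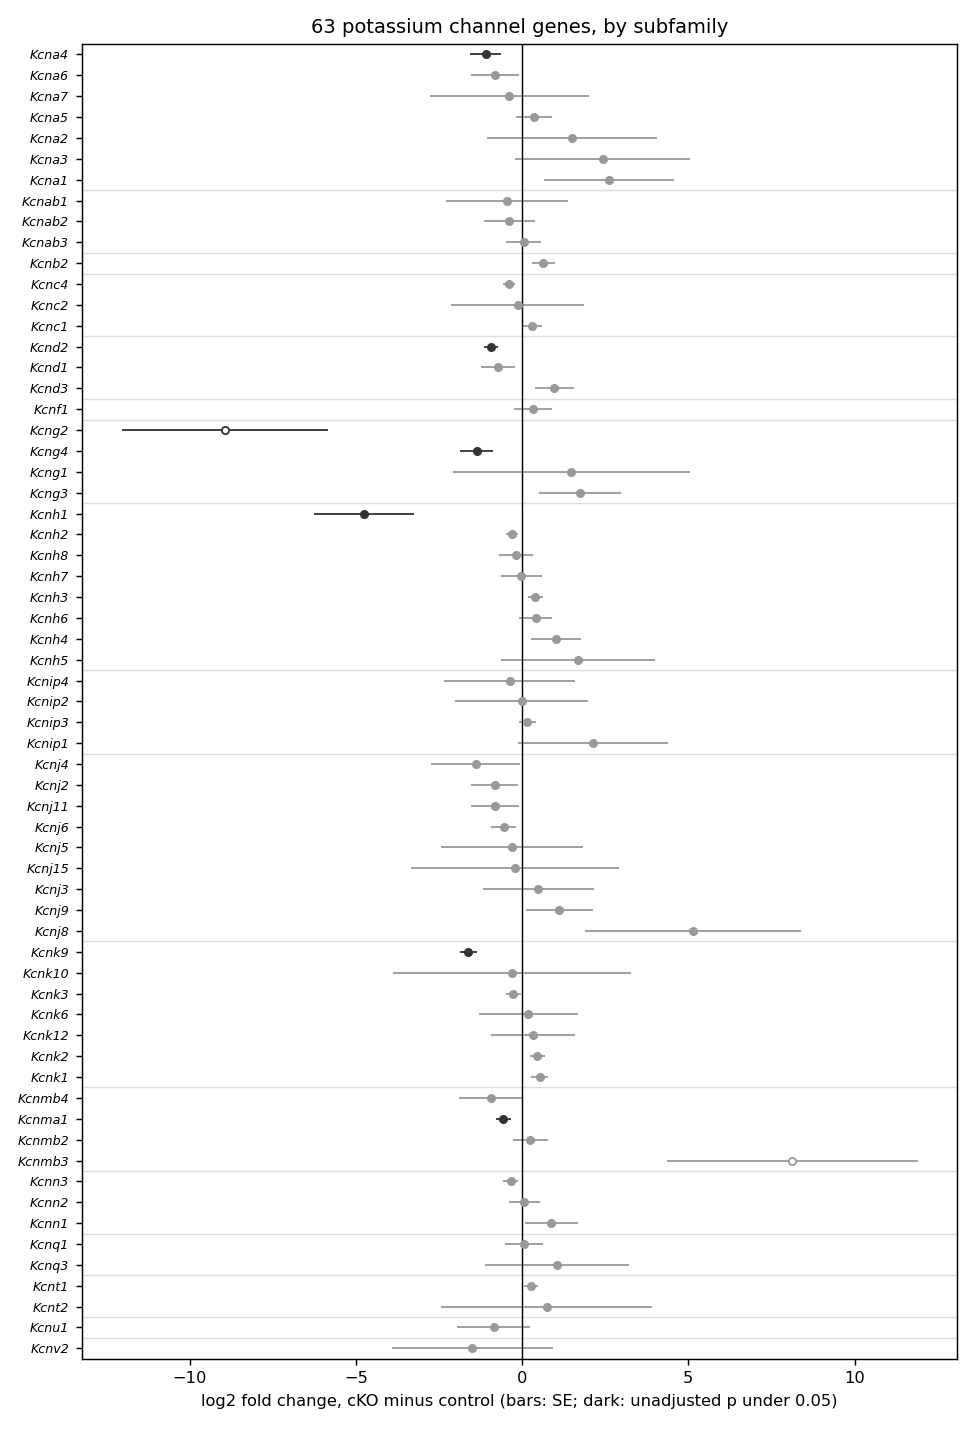
Log2 fold change of 63 potassium channel genes with its standard error, cKO minus control, grouped by subfamily; dark points have an unadjusted p under 0.05, and open points have no count in 1 group, so their position depends on the fit. The 7 dark points all lie to the left of 0, and many of the other bars cross it.

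Among the tandem-pore channels, Kcnk9 had the smallest p of all members, while the levels of Kcnk3, its close relative, overlapped between the groups. Kcnk9 codes for the acid-sensitive background channel TASK-3 and Kcnk3 for TASK-1, which can assemble into mixed channels, and their filter sequences are shown above. Kcnk9 (ENSMUSG00000036760.7, mm10 chromosome 15, 72501089 to 72546340, minus strand) had 91.8 and 135 CPM in control and 35.4 and 38.7 in cKO libraries. Both cKO libraries were far below both controls, and the groups did not overlap. Its log2 fold change was -1.61 (SE 0.26, adjusted p = 0.206 by edgeR), which puts the cKO mean at 32.7% of the control mean. Kcnk9 was past the threshold without a filter and with each single library left out. The log2 fold changes of those fits were -1.62 without a filter and -1.30 to -1.87 with 1 library left out. DESeq2 (-1.61), limma-voom (-1.65) and edgeR's newer method (-1.65) called it too.

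Kcnk3 had 147 and 186 CPM in control and 158 and 121 in cKO libraries, and the groups overlapped (log2 fold change -0.26, SE 0.21, adjusted p = 0.959 by edgeR). On the scale per kilobase Kcnk9 made up 16.8% and 19.0% of the sum of both genes in the controls, against 6.76% and 9.39% in cKO. With 2 libraries against 2, an exact permutation test of such a share cannot give a two-sided p below 0.333, so none is given. A transcript of the opposite strand, Gm9899, shares 229 exonic bases with Kcnk3 and had 10.9% of its counts, and Kcnk3 had a count that was not whole, so its level is uncertain to that extent. Kcnk2, a mechanosensitive background channel, was tight within groups, with 54.9 and 53.6 CPM in control and 75.4 and 73.9 in cKO libraries (log2 fold change 0.46, SE 0.22, adjusted p = 0.741). Kcnk1 had 67.8 and 98.5 in control and 102 and 138 in cKO libraries (0.53, SE 0.26, adjusted p = 0.746). In both genes the cKO libraries were above the controls without passing the test. The remaining members, Kcnk6, Kcnk10 and Kcnk12, were low, and their groups overlapped.

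The A-type channels, which open and inactivate quickly below the firing threshold and delay the next spike, held 2 of the 7 lower genes. Kcnd2 (ENSMUSG00000060882.5, chromosome 6, 21215503 to 21729805, plus strand) had 135 and 134 CPM in control and 61.9 and 79.4 in cKO libraries. The controls were nearly equal and both cKO libraries lay well below them, at 52.6% of the control mean. Its log2 fold change was -0.93 (SE 0.21, adjusted p = 0.394 by edgeR). DESeq2 (adjusted p = 5.26e-05), limma-voom (0.0146) and edgeR without a filter (0.00982) called it, but no fit with 1 library left out did. The relatives did not share one direction. Kcnd1 had 29.3 and 18.3 CPM against 9.77 and 18.8, with overlap, and Kcnd3 had 8.45 and 6.98 against 16.8 and 13.5, with both cKO libraries above the controls. As Kcnd2 carried most of the family's level, the sum over Kcnd genes was 32.6 and 30.2 CPM per kilobase in the controls and 15.6 and 20.4 in cKO.

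Kcna4, the Shaker subunit that inactivates on its own, was the other lower A-type gene. Kcna4 (ENSMUSG00000042604.5, chromosome 2, 107290639 to 107298502, plus strand) had 41.5 and 39.7 CPM in control and 26.7 and 11.2 in cKO libraries. Its controls were close to each other, the cKO libraries were both lower, and cKO replicate 2 was the lowest. The log2 fold change was -1.10 (SE 0.46, adjusted p = 0.700 by edgeR), or -0.62 without cKO replicate 2 and -1.85 without cKO replicate 1. Kcna5, a delayed rectifier whose mean level per length over the 4 libraries was 6.16 CPM per kilobase, as was that of Kcna4, had 21.3 and 9.75 CPM against 15.4 and 24.1, with overlap (log2 fold change 0.35, SE 0.55), and its sign turned without control replicate 2 (-0.10) or cKO replicate 2 (-0.017). Summed over 7 Kcna members the level was similar, with 18.6 and 17.2 CPM per kilobase in the controls and 17.7 and 15.3 in cKO, while the share of Kcna4 in it was 46.1% and 47.7% against 31.2% and 15.2%. Kcna1, Kcna2 and Kcna3, named after their values were seen, had no count in control replicate 1, at most 52 in control replicate 2 and 43 to 171 in the cKO libraries. Kcna1 was called without control replicate 2 (adjusted p = 0.0397 by edgeR), where control replicate 1, with no count, stands alone for its group.

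The accessory subunits of A-type channels gave no common direction. Kcnip3 had 131 and 86.2 CPM in control and 106 and 137 in cKO libraries, with overlap (log2 fold change 0.16, SE 0.26), and its sign turned without control replicate 2 (-0.11) or cKO replicate 2 (-0.054). Kcnip1, Kcnip2 and Kcnip4 each had no count in at least 1 library. Kcnab3, a cytoplasmic beta subunit of Shaker channels, had 14.3 and 20.1 CPM against 11.7 and 24.0, with a sign that depended on the fit (0.05, SE 0.53). Dpp10, an accessory protein that speeds A-type gating and belongs to the list of partner genes described further on, had 48.0 and 29.9 CPM in control and 20.1 and 20.3 in cKO libraries. Both cKO libraries were below both controls, and the log2 fold change was -0.94 (SE 0.37, adjusted p = 0.687 by edgeR). Its relative Dpp6 averaged 106 ± 40.7 CPM over the controls (SD, n = 2) and 119 ± 10.3 over the cKO libraries (SD, n = 2), and the groups overlapped.

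**Figure D3:**
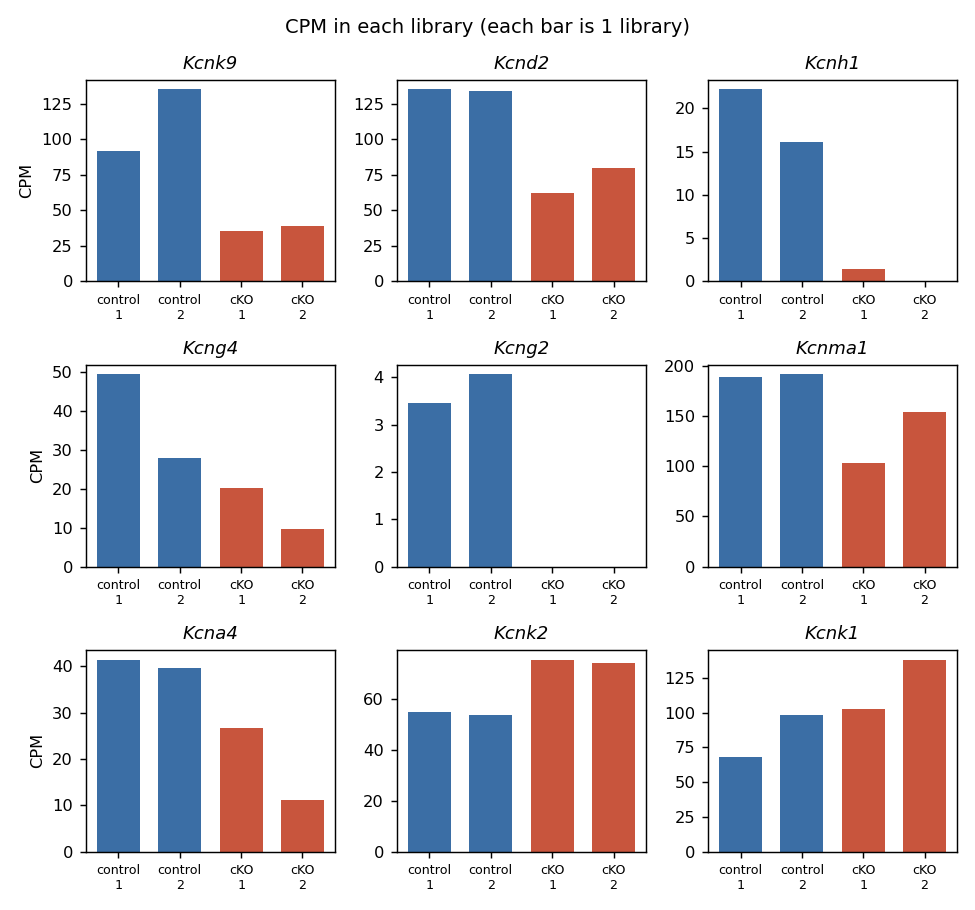
CPM of 9 potassium channel genes, where each bar is 1 library, blue for control and red for cKO, and every axis starts at 0. Kcnk9, Kcnd2, Kcnh1, Kcng4, Kcng2, Kcnma1 and Kcna4 have both cKO bars below both controls, while in Kcnk2 and Kcnk1 both cKO bars are above.

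Kcnb2, a slow delayed rectifier, was compared beside the silent subunits that assemble with Kcnb channels. It had 25.6 and 43.3 CPM in control and 62.8 and 44.9 in cKO libraries, with both cKO libraries higher (log2 fold change 0.64, SE 0.35). Kcng4 (ENSMUSG00000045246.11, chromosome 8, 119623854 to 119635680, minus strand), which codes for a silent subunit, had 49.5 and 28.0 CPM in control and 20.3 and 9.78 in cKO libraries. Both cKO libraries were below both controls, although the libraries of each group were far apart. Its log2 fold change was -1.36 (SE 0.49, adjusted p = 0.654 by edgeR) and ran from -0.90 to -1.99 with 1 library left out.

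Kcng2 was counted in controls only, at a low level. Kcng2 (ENSMUSG00000059852.7, chromosome 18, 80294546 to 80364254, minus strand) had 38 and 85 counts in the controls and 0 in both cKO libraries. Against a floor of 3 counts per library its level was at least 20.8-fold lower in cKO, a bound that covers counting error only (adjusted p = 0.654 by edgeR, 0.00872 by DESeq2). Kcng2 met the membership rule through the controls alone, so a lower level in cKO came with its selection. Control replicate 1 had no count for 13 members that control replicate 2 counted, and a transcript with 0 counts may still have been present. Kcng3 went the other way, with 1.09 and 3.58 CPM in control and 10.9 and 4.89 in cKO libraries. Kcnf1 had 14.2 and 8.03 CPM against 13.9 and 14.1, and Kcnv2 had 3.64 and 3.25 against 0 and 2.42. None of these 3 modifiers had an unadjusted p under the threshold.

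Summed levels of the Kcnc family overlapped between the groups. Over its 4 members the sum was 105 and 86.7 CPM per kilobase in the controls and 102 and 93.2 in cKO. Kcnc4 (ENSMUSG00000027895.9, chromosome 3, 107438303 to 107459552) had 197 and 167 CPM in control and 147 and 131 in cKO libraries (log2 fold change -0.39, SE 0.18, adjusted p = 0.729 by edgeR). It did not pass the test, though both cKO libraries lay below both controls. Kcnc4 made up 51.2% and 52.4% of the family in the controls and 39.5% and 38.4% in cKO, a description with no test. A share within a family does not depend on the scaling between libraries, and here it varied less between replicates than the level of Kcnc4 did. Kcnc1 had 31.6 and 46.4 CPM in control and 46.1 and 49.8 in cKO libraries, with overlap.

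**Figure D4:**
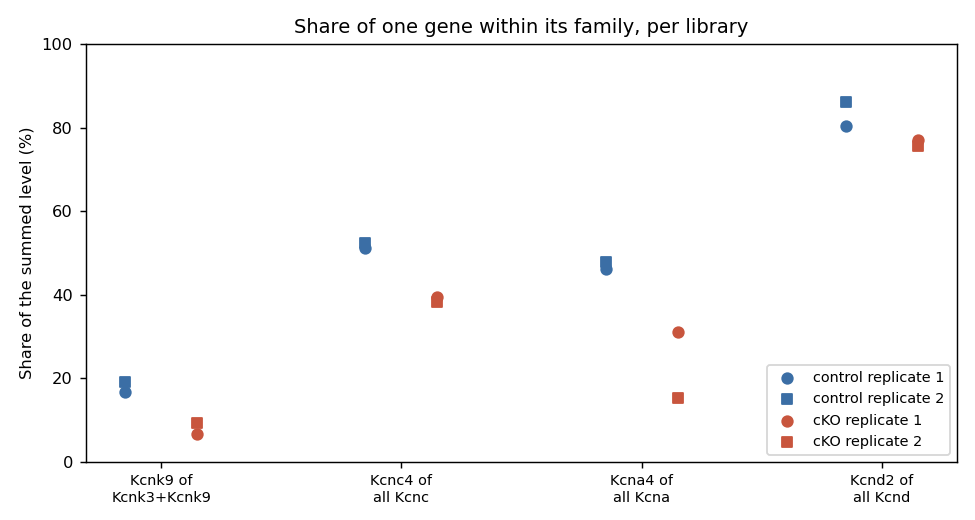
Share of 1 gene in the summed level per kilobase of its family or pair, in percent; circles are replicate 1 and squares replicate 2 of control (blue) and cKO (red). The share of Kcnc4 is 51.2% and 52.4% in the controls against 39.5% and 38.4% in cKO, and the share of Kcnk9 is 16.8% and 19.0% in the controls against 6.76% and 9.39% in cKO.

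Among the ether-a-go-go channels, Kcnh1 was nearly uncounted in the cKO libraries. Kcnh1 (ENSMUSG00000058248.12, chromosome 1, 192190774 to 192510159, plus strand) codes for the founding member, a slowly activating channel. It had 244 and 338 counts in the controls, or 22.2 and 16.2 CPM, and 22 and 0 counts in the cKO libraries, or 1.41 and 0 CPM. The cKO mean was 3.69% of the control mean. Its log2 fold change was -4.76 (adjusted p = 0.626 by edgeR). DESeq2 (adjusted p = 0.326), limma-voom (0.549) and edgeR's newer method (0.115) did not call it, while edgeR without a filter did (0.00308). Leaving out cKO replicate 1, which leaves cKO with 0 counts, also gave a call (adjusted p = 1.40e-05), while the other 3 omissions did not (adjusted p 0.0706 to 0.348).

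Other members of the Kcnh family differed by less. Kcnh2, the delayed rectifier that carries the slow erg current of endocrine cells and heart, had 183 and 193 CPM in control and 166 and 140 in cKO libraries (log2 fold change -0.30, SE 0.17, adjusted p = 0.821 by edgeR). Kcnh6 had 20.8 CPM in control replicate 1 and 51.1 to 65.5 in the other 3 libraries, and its log2 fold change turned from 0.41 to -0.19 without control replicate 1. Kcnh3, an ELK channel, had 48.2 and 48.0 against 64.1 and 62.8 (0.40, SE 0.24, adjusted p = 0.844). Its replicates differed by little within each group. Kcnh7 shares 696 exonic bases with Gca on the opposite strand, which had 188% of its counts, so its level is uncertain. Kcnh4, Kcnh5 and Kcnh8 did not reach an unadjusted p under the threshold.

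All 4 Kcnq members had a fitted log2 fold change above 0, and 0 passed the test. Over all genes tested 47.6% were below 0. The Kcnq genes code for the channels of the M current, a slow brake on repeated firing that hormone receptors acting through Gq close, and for the related Kcnq1. Kcnq3 had no count in control replicate 1 and 57 to 87 in the others. Kcnq1 had 138 and 392 counts against 150 and 408, with overlap. The antisense transcript Kcnq1ot1, which shares 121 exonic bases with it, had 515% of its counts, so with the strand setting unknown the level of Kcnq1 is uncertain.

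Inward rectifiers were low, and 6 of their 9 members were lower (as were 47.6% of all genes tested), with a median log2 fold change of -0.30. None had an unadjusted p under the threshold. Kcnj6, a subunit of the channels that dopamine and somatostatin receptors open through G proteins, had the highest level per length with 26.9 and 39.1 CPM in control and 23.9 and 21.1 in cKO libraries (-0.56, SE 0.36, adjusted p = 0.894 by edgeR). An antisense transcript, Gm41505, shares 380 exonic bases with it and had 29.9% of its counts. The other G protein-gated subunits varied between libraries. Kcnj3 had 0 and 294 counts in control and 138 and 196 in cKO libraries, Kcnj5 had 37 and 107 against 107 and 0, and Kcnj9 had 26 and 110 against 154 and 119. Kcnj3 was called without control replicate 2 (adjusted p = 0.0158 by edgeR), where control replicate 1, with no count, stands alone for its group.

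The ATP-sensitive channel combines a Kcnj pore with a sulfonylurea receptor. Its pore gene Kcnj11 had 12.0 and 14.2 CPM in control and 10.7 and 4.27 in cKO libraries, while its receptor gene Abcc8, a partner gene, had 33 and 225 counts against 294 and 359, with both cKO libraries higher also in CPM (adjusted p = 0.735 by edgeR). Kcnj8, the pore of the vascular form and a known pericyte gene, had 0 and 2 counts in control and 38 and 31 in cKO libraries. Kcnj8 met the membership rule through the cKO libraries alone, so a higher level there came with its selection. Beside it, the pericyte and fibroblast markers summed to 0.0909 and 16.4 CPM in control and 18.6 and 12.7 in cKO libraries, with Rgs5 at 0, 81, 93 and 101 counts and Pdgfrb at 0, 34, 0 and 0. Abcc9, the receptor of the vascular form, had 10 counts in control replicate 2 and none elsewhere. The part of such cells in the Kcnj8 counts was not tested.

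Of the calcium-activated channels, the large-conductance pore gene had an unadjusted p under the threshold. Kcnma1 (ENSMUSG00000063142.15, chromosome 14, 23289431 to 24014491, minus strand) codes for its pore, which opens with calcium and voltage together and shapes pituitary bursting. It had 189 and 192 CPM in control and 103 and 154 in cKO libraries. The controls were nearly equal, and cKO replicate 2 lay between them and cKO replicate 1. Its log2 fold change was -0.57 (SE 0.22, adjusted p = 0.685 by edgeR), or -0.31 without cKO replicate 1 and -0.90 without cKO replicate 2. The accessory genes gave no common direction. Kcnmb4 had 10.4 and 5.93 CPM against 3.86 and 4.61, and Kcnmb2 had 10.3 and 15.9 against 17.6 and 13.6. Kcnmb4os2 on the opposite strand shares 693 exonic bases with Kcnmb4 and had 123% of its counts. Kcnmb3 had no count in the controls and 46 and 23 in cKO, at least 10.2-fold higher against the floor of 3 counts per library (adjusted p = 0.739 by edgeR). It met the membership rule through the cKO libraries alone, so a higher level there came with its selection.

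The small-conductance channels, which carry the pulsed current that follows each calcium rise in gonadotropes, overlapped between the groups in all 3 members. Kcnn3 led them with 115 and 158 CPM in control and 97.7 and 118 in cKO libraries, with overlap (log2 fold change -0.34, SE 0.23, adjusted p = 0.895 by edgeR). Kcnn1 had 6.46 and 9.80 against 24.7 and 5.40, and Kcnn2 had 24.3 and 16.4 against 15.1 and 27.5. The sum over these 3 genes was 15.7 and 19.4 CPM per kilobase in the controls and 16.8 and 16.1 in cKO. Kcnt1 had 105 and 151 CPM against 158 and 150 (0.27, SE 0.22), and its relative Kcnt2 had no count in 1 library of each group. Kcnu1, a gene known from sperm, had 94 and 105 counts in control and 73 and 50 in cKO libraries.

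A list of 39 other genes of the system was read from the same fit. It held accessory proteins, pacemaker and leak channels, sulfonylurea receptors, calmodulins and anchoring proteins. Of these 37 were found by symbol and 34 were tested, 0 passed over all genes, and 2 had an unadjusted p under 0.05 (5.88%, against 7.04% of all genes tested). Both were lower: Dpp10, given above, and Hcn3, a pacemaker channel, with 57.9 and 31.6 CPM in control and 26.4 and 16.6 in cKO libraries (log2 fold change -1.05, SE 0.42, adjusted p = 0.692 by edgeR). Another pacemaker gene, Hcn4, had 42.1 and 66.1 against 72.3 and 86.0 (0.55, SE 0.28, adjusted p = 0.772). The leak channel gene Nalcn and its large partner Unc80 differed by less than the SD of the controls, with log2 fold changes of 0.13 (SE 0.18) and 0.02 (SE 0.14). The list had 15 lower and 19 higher members and a median of 0.02.

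RefSeq promoter windows of GRCm38.p6, from 250 bases before to 50 after a start site, were matched by symbol to 46 of the 67 members. The GATA motif was searched on both strands in the forms AGATAA (with its reverse complement), AGATAG (likewise), TGATAA (likewise) or else TGATAG (likewise), and a gene with several matches, overlapping or not, was counted once. The motif occurred in 13 of these 46 members (28.3%) and in 33.0% of the 27025 genes with a window. Of the 7 lower members 5 had a window, and 0 of the 5 held the motif. Kcnk9 and Kcng2 had no window, so they were not searched. A missing match says only that these letters are not in this window.

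The 6 lower genes with counts in both groups had both cKO libraries below both controls. Leaving out 1 library therefore could not turn their direction, and only the sizes are of interest. Kcnd2 varied least, from -0.76 to -1.13. Kcnk9 ran from -1.30 to -1.87, Kcnma1 from -0.31 to -0.90 and Kcna4 from -0.62 to -1.85. In Kcnma1 and Kcna4 the cKO libraries were the ones that moved the value.

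**Figure D5:**
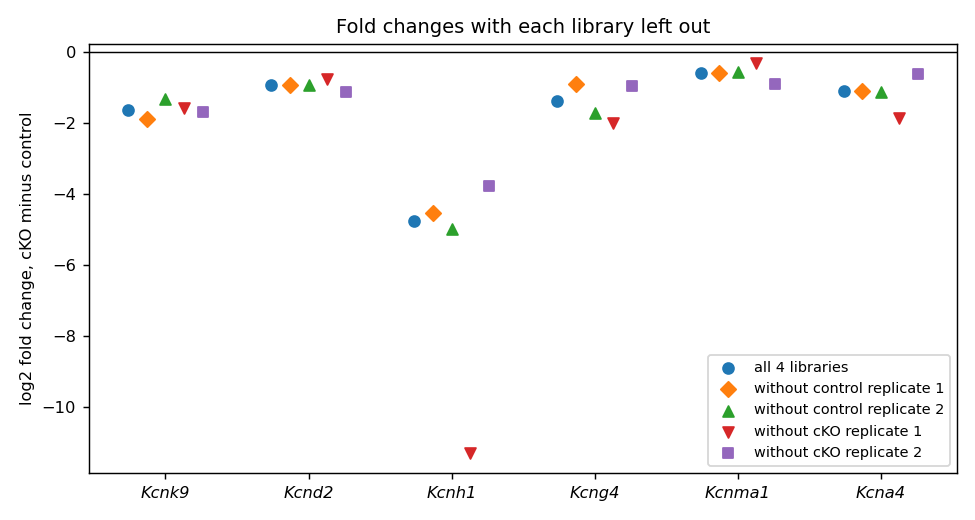
Log2 fold change, cKO minus control, of 6 potassium channel genes fitted with all 4 libraries and with each library left out in turn. All values lie below 0, as they must where both cKO libraries are below both controls. The value of Kcnh1 without cKO replicate 1 has no cKO count behind it, so its size depends on the fit.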

How the data were processed

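Poly(A) RNA from sorted gonadotropes was sequenced in 4 libraries, 2 from control and 2 from cKO mice. The submitters' processing notes name STAR 2.5.1b, featureCounts 1.5.0-p1 and the mm10 build. The authors deposited estimated counts per gene for 54532 identifiers, without scaling between libraries, and 4.5% of the values were not whole. The sources used here give neither the annotation nor the strand setting of the counting. Symbols, positions and exon lengths came from GENCODE M21, also on mm10, which matched 54495 identifiers once versions were left off.

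Counts were rounded, filtered with filterByExpr (minimum count 10, minimum total 15, by group), TMM-scaled, and compared by group alone in edgeR 4.0.16 (R 4.3.3), by its quasi-likelihood test, which is two-sided. The filter left 17349 genes, over which p-values were adjusted by the Benjamini-Hochberg method at a threshold of 0.05. The standard error (SE) was the size of the log2 fold change divided by the square root of F. The code was tested on simulated data.

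The members and lists were chosen with earlier results of these data known. Named genes were members with an unadjusted p under 0.05, the 12 with the highest level per length, the highest in each subfamily, and those with no count in 1 group. Other genes are named after their values were seen. Results of 4 members are not reported here by name, and counts over members include them. Alternatives were other scalings and filters, DESeq2 1.42.0, limma-voom (limma 3.58.1), other forms of the edgeR test, the replicate number as a block, unrounded or thinned counts, stricter membership and each library left out. The replicate numbers did not pair the libraries (correlation of deviations -3.47e-05 over 17349 genes). Total counts ran from 10646909 to 21135301, and with no molecular identifiers, reads can be copies of 1 molecule, so a floor of 3 counts covers counting error only.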

Additional observations from a re-analysis of the deposited data

How the results depend on the processing

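With edgeR on TMM-scaled counts 0 of 67 members, 10 genes of the whole table and 0 partner genes were called, 7 members had an unadjusted p under 0.05, and the members' median log2 fold change was 0.06. Members called numbered 4 without a filter, 4 by DESeq2, 3 by limma-voom and 1 by edgeR's newer method, and 1 to 4 with 1 library left out. Over the whole table the calls were 253 without a filter, 3 with a filter of 1 CPM in 2 libraries, 963 by DESeq2, 256 by limma-voom, 47 by the newer method, 26 by the robust form, and 66 to 681 with 1 library left out, the most without control replicate 2. Members with an unadjusted p numbered 17 by DESeq2 and 6 to 21 with 1 library left out, and partner genes called 0 to 1. The median was 0.015 with library size only, 0.14 by limma-voom, 0.15 by the newer method, 0.11 with thinned counts, 0.12 with the replicate block, and -0.054 to 0.33 with 1 library left out. The replicate block called 0 members and 7 genes, and changed no call of a member. Of the 27 members that the naming rule took 22 kept their direction under all alternatives. The others turned: Kcnab3 by limma-voom (-0.052) and with the replicate block (-0.012), and these with 1 library left out, Kcnab3 from -0.56 to 0.48, Kcnh6 from -0.19 to 1.47, Kcnf1 from -0.016 to 0.79, Kcna5 from -0.10 to 1.01 and Kcnip3 from -0.11 to 0.49. The cause was not tested. Counts were sparse in part of the members: 18 were under 1 CPM per kilobase and 19 lacked a count in at least 1 library. The part of sequencing depth in this was not tested.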
